A study of Mus musculus with 32 samples.

Results

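Oxidative phosphorylation is carried out by 5 protein complexes of the inner mitochondrial membrane, and the genes for their subunits lie partly in the nucleus and partly in the mitochondrial genome. Members were taken by symbol from the mouse annotation: protein-coding genes of the Nduf (a, b, c, s and v), Sdh, Uqcr, Cox4 to Cox8 and Atp5 families, and the 13 protein-coding genes of the mitochondrial chromosome. This rule found 107 gene identifiers, 94 nuclear (Atp5o stands under 2, of which 1 passed) and 13 mitochondrial, of which 93 reached a deposited value of 10 in 3 or more libraries of 1 or both of the 2 stage tables. At embryonic stage E15.5, 78 nuclear and 8 mitochondrial members passed, among 10289 genes that did. At E19.5 the numbers were 85 and 8, among 13840 genes. The symbols also take in 8 Ndufaf genes, whose products assemble complex I and are not subunits of it, and Cox7a2l, whose product helps to join complexes into larger assemblies. Ndufa4 carries a complex I name but its protein is now counted with complex IV, and it is grouped here by its symbol.

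Electrons from NADH enter the chain at complex I and those from succinate at complex II, which is also an enzyme of the TCA cycle and has nuclear subunits alone. Complex III passes them to cytochrome c and complex IV to oxygen, and complexes I, III and IV pump protons that complex V, the ATP synthase, uses to make ATP. The mitochondrial genome is transcribed as long precursors from both strands and encodes core subunits of complexes I, III, IV and V. Several complex IV subunits have tissue-restricted isoforms, such as those known from heart, muscle, testis and lung. In the thymus, early T-cell progenitors pass from the DN1 to the DN2 stage while they grow and take on the T-cell programme.

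The 32 libraries came from bulk RNA of cells sorted by flow cytometry from the embryonic thymus of 5x polychromILC mice, a strain that all groups share. DN1 cells were divided by BCL11b, a transcription factor of T-lineage commitment, and ID2, a regulator of innate lymphoid cells, into BCL11b-ID2-, BCL11b-ID2+, BCL11b+ID2- and BCL11b+ID2+ gates at both stages and a BCL11blowID2low gate at E19.5, and DN2 cells were sorted at both stages. There were 3 libraries per group (2 for the E15.5 DN2 cells), and the libraries are called by the numbers in their labels (1, 2 and 3 at E15.5, and 1, 2 and 4 at E19.5). Whether libraries of a group stem from different animals is not in the labels. The p-values therefore rest on variation among these libraries, some or all of which can be technical.

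E15.5 libraries held 12030749 to 20709387 reads and E19.5 libraries 2599470 to 9498133. Mitochondrial ribosomal RNA took 50.8% to 80.0% and 28.7% to 58.8% of them, and the nuclear members were covered by 14732 to 34667 and by 6801 to 36804 reads per library. Genes that mark T-lineage cells were detected in every E19.5 gate (8 of 8, summed values 1830 to 10895), lowest in BCL11b-ID2-. In that gate markers of macrophages and granulocytes summed to 2184–3482 with none of the 11 measured genes at 0. B-cell markers summed to 223–261 there with 0 of 6 genes at 0, but reached 240 in BCL11blowID2low. Erythroid and megakaryocyte markers summed to 231–418 in BCL11b-ID2-, but reached 296 in DN2. Markers of thymic epithelium and stroma summed to 980–1360 in BCL11b-ID2- (75.9 to 977 in the other gates). The macrophage and granulocyte sum was 425–1138 in BCL11b+ID2+ and at most 371 in the other 4 gates. Bcl11b was at least 376 in the 4 E19.5 gates sorted for it or as low or DN2, and 2.89 to 39.2 in the BCL11b- gates, and Id2 was at least 961 in the ID2+ gates, 159 to 183 in BCL11blowID2low and at most 32.1 in the others. At E15.5, Id2 was 85.0 in BCL11b+ID2+ library 1 and 126 in BCL11b-ID2- library 1, against the labels' order, and Bcl11b was 509 in BCL11b-ID2+ library 1.

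Several mitochondrial members have near-identical stretches in the nuclear genome, which bears on how their reads can be counted. The transcript of mt-Nd3, a core subunit of complex I (M:9459–9806 in GRCm38, plus strand), matches the annotated pseudogene Gm28438 (1:24612775–24613119) at 99.71% identity over 345 bases. The lines below give the first 23 bases of both, with the 1 base that differs in capitals, the substitution T3C counted from the 5′ end of the transcript.
mt-Nd3: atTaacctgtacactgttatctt
Gm28438: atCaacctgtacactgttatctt
Most of this transcript cannot be told apart from its copy, and how reads that match both were counted is not stated in the sources used here. The median share of mt-Nd3 in mitochondrial mRNA was 0.00207% for the E15.5 libraries and 0.0113% for the E19.5 libraries, against 11.8% and 16.5% for mt-Nd1. Copies at 100% identity exist for mt-Co2 (Gm28661), mt-Atp6 (Gm10925), mt-Co3 (Gm28437) and mt-Nd4l (Gm10222). The value of mt-Co2 was 0 to 2.34 at E15.5, and mt-Co3, mt-Atp6, mt-Atp8 and mt-Nd4l are not analysed here. Copies also cover 63.6% of mt-Nd4 (Gm28439) and 31.3% of mt-Co1 (Gm29216), so their levels are uncertain. Among the 94 nuclear members, 16 have a copy of at least 98% identity over at least 100 bases in an annotated transcript of a gene elsewhere. Copies were sought among annotated transcripts alone. A covered share is that of the member's transcript with the largest share.

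The promoters of 4 of the nuclear members called in more than 1 E19.5 comparison are shown next. The windows run from 250 bases before to 50 after the start of transcription in RefSeq (GRCm38.p6), on the gene's own strand. Capitals mark matches to 3 motifs known from promoters of respiratory genes, searched on both strands: GCGCA and GCGC with any 1 base between them for NRF1, CCGGAAG for ETS factors such as GABPA, and AAGATGGC for YY1.
Sdhd (chr9:50603800-50604099, minus strand): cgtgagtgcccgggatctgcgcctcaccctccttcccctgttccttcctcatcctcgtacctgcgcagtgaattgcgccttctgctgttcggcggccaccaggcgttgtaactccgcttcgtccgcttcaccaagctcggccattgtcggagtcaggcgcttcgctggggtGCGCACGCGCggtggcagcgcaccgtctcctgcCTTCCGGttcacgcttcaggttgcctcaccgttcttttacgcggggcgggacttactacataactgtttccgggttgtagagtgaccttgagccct
Ndufa9 (chr6:126849095-126849394, minus strand): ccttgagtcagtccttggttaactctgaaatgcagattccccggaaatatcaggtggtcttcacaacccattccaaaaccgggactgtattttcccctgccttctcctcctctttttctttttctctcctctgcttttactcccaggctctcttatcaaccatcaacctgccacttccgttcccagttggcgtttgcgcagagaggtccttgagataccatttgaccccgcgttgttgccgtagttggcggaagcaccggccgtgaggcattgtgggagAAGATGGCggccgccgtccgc
Uqcr10 (chr11:4704295-4704594, minus strand): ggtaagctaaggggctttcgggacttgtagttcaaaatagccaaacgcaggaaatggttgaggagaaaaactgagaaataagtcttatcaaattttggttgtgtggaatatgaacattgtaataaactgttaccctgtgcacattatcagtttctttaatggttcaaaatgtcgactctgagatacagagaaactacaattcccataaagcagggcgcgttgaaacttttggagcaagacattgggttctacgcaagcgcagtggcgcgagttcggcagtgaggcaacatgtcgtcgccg
Atp5b (chr10:128083057-128083356, plus strand): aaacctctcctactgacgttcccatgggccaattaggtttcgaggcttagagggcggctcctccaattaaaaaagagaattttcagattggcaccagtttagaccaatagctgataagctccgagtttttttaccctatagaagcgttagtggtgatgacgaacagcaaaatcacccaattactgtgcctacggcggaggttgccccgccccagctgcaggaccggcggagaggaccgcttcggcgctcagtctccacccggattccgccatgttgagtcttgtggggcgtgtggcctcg
The Sdhd window holds an NRF1 and an ETS match, the Ndufa9 window a YY1 match, and the other windows hold none of the 3. Cox6b2 was also called in more than 1 comparison, and its window, which is not shown, holds none of the 3 either. Over the 74 members with a promoter in the table, 18 (24.3%) held the NRF1 motif, against 4.6% of all 32851 windows. The ETS motif was in 17 (23%, against 8.86%) and the YY1 motif in 9 (12.2%, against 2.75%). The ETS and YY1 motifs share the letters AAG and could overlap. A match is a description of these letters and not a site of binding.

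The mitochondrial members stood far above the nuclear ones in both tables. Per kilobase of exon, their median level (mean over libraries of normalised counts) was 42555 at E15.5, from 27.2 for mt-Nd3 to 89740 for mt-Cytb, whose protein is the cytochrome b of complex III. The nuclear median was 48.1, from 4.77 for Ndufv3 to 2334 for Atp5b, the catalytic beta subunit of ATP synthase. At E19.5 the medians per kilobase were 3651 and 76.2. The leading mitochondrial mRNA there was mt-Co1, the catalytic subunit of complex IV, at 18224 per kilobase, followed by mt-Cytb at 12030 and mt-Nd1 at 11737, while mt-Nd4 (3863), mt-Nd5 (3439), mt-Nd2 (1942) and mt-Nd6 (1833) were lower. At E15.5 the order was mt-Cytb, mt-Co1 (82421), mt-Nd1 (59722), mt-Nd2 (45073), mt-Nd4 (40037), mt-Nd5 (39483) and mt-Nd6 (22297). Levels set across the 2 tables are not comparable, since each was normalised on its own.

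Within a library, mt-Co1 made up a median of 28.3% (E15.5) and 41.3% (E19.5) of mitochondrial mRNA reads. mt-Cytb made up 21.6% and 20.5%. The share of mt-Nd2, a core complex I subunit, was 7.0% to 12.4% in the E15.5 libraries and 2.27% to 3.67% in the E19.5 libraries, with no overlap. mt-Nd4 and mt-Nd5 had medians of 11.6% and 14.9% at E15.5 and 8.08% and 9.13% at E19.5, and mt-Nd6 had 2.36% and 1.41%. Stage and barcode set went together in this series and cannot be told apart.

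Nuclear members differed in how often they were seen. At E15.5, 53 to 77 of the 78 were detected in a library, and 26 of 78 were never at 0 (41.5% of all genes kept). At E19.5, 82 to 84 of the 85 were detected and 79 of 85 were never at 0 (67.3% of all genes kept). The median coefficient of variation over libraries was 1.45 at E15.5 and 0.403 at E19.5 for nuclear members, against 1.49 and 0.624 for all genes kept, and 0.762 and 0.174 for the mitochondrial members. Atp5a1, the alpha subunit of ATP synthase, stayed under the minimum at both stages (at most 1.1), and Ndufs3, Uqcrc1 and Cox8c are not analysed here. The counting tool is not given, and whether the Atp5a1 value reflects little RNA or the way reads were counted was not tested. At E15.5, Ndufb4, Ndufs7, Atp5g2 and Ndufs6 also fell short, with 1 or 2 libraries at 10 or more, while Cox6b2, Ndufaf2, Ndufaf6, Ndufb2 and Uqcr11 passed with 3. At E19.5, Cox8b, Ndufa4l2 and Cox4i2 fell short, and Atp5g2, Cox6a2, Cox7a1 and mt-Nd3 passed with 3 libraries.

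Among the E19.5 levels per kilobase, the highest nuclear member of each role was Ndufs8 in the complex I core (118), Ndufc2 among the other complex I subunits (352), Ndufaf8 among the assembly factors (64.8), Sdhd in complex II (341), Uqcr10 in complex III (300.3), Cox6a1 in complex IV (1001) and Atp5b in complex V (899). The lowest were Ndufs1 (17.7), Ndufab1 (4.49), Ndufaf6 (12.9), Sdhb (76.2), Uqcrb (25.5), Cox7a1 (8.87) and Atp5g2 (2.25). Subunits of 1 complex thus differed widely in reads per kilobase. The length used was that of all annotated exons of a gene together. It can exceed the length of the transcript present, which lowers the value. This length was 8086 bases for Ndufs1, 6883 for Ndufab1 and 6443 for Atp5l, so the orders given here depend in part on the annotation. Near-identical copies elsewhere cover up to 85.0% of a Ndufab1 transcript, 62.8% of a Uqcrb transcript and 100% of an Atp5g2 transcript, so these low levels are uncertain. At E15.5 the highest outside the complex I core were Ndufa4 (353), Ndufaf4 (98.8), Sdha (551), Uqcrfs1 (457), Cox6a1 (382) and Atp5b. The lowest of each role were Ndufs8 (20.1), Ndufv3, Ndufaf3 (15.3), Sdhb (31.2), Uqcrq (16.2), Cox6b2 (9.72) and Atp5l (6.24).

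Mitochondrial mRNA reads per read of the nuclear members were taken as a ratio within each library. This covers only the members with counted reads and is not the full balance of the 2 genomes. At E19.5 this ratio was highest in BCL11b+ID2- at 5.52 ± 1.49 (SD, n = 3, range 4.28 to 7.18) and lowest in DN2 at 2.74 ± 0.445 (n = 3, 2.23 to 3.01). In between lay BCL11b+ID2+ (4.65 ± 0.626), BCL11b-ID2+ (3.72 ± 0.353), BCL11blowID2low (3.5 ± 0.508) and BCL11b-ID2- (3.09 ± 0.483). The BCL11b+ID2- libraries lay above all those of DN2, BCL11b-ID2+ (at most 3.99), BCL11blowID2low (at most 4.09) and BCL11b-ID2- (at most 3.46). They overlapped those of BCL11b+ID2+, and the SDs of neighbours in this order overlapped. At E15.5 the ratio ran from 8.64 to 50.5, with both ends in BCL11b+ID2- (29.7 ± 20.9, n = 3), and was 21.7 ± 4.09 in BCL11b+ID2+, 20.1 ± 7.85 in BCL11b-ID2+, 12 in both DN2 libraries and 11.1 ± 2.83 in BCL11b-ID2-. Every E15.5 library lay above every E19.5 library (2.23 to 7.18). Ratios were described and not tested.

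The nuclear members took 0.824% ± 0.148 (SD, n = 3) of the reads of nuclear genes in DN2 at E19.5 and 0.789% ± 0.0897 in BCL11b-ID2-. They took 0.618% ± 0.226 in BCL11b+ID2+, 0.576% ± 0.0981 in BCL11blowID2low, 0.567% ± 0.0694 in BCL11b-ID2+ and 0.499% ± 0.135 in BCL11b+ID2-. The 3 DN2 libraries (0.708% to 0.990%) lay above those of BCL11b+ID2- (0.365% to 0.636%), BCL11b-ID2+ (0.488% to 0.619%) and BCL11blowID2low (0.511% to 0.688%). Those of BCL11b-ID2- (0.686% to 0.854%) also lay above those of BCL11b+ID2- and BCL11b-ID2+. The share also moved with the library number: library 1 had the lowest share in 6 of 6 gates and the fewest reads in 5 of 6, and library 4 the highest ribosomal RNA share in 6 of 6, and the part of these in the shares was not tested. At E15.5 the share was 0.323% to 0.842% over all libraries, and gates overlapped except that both DN2 libraries (0.517% and 0.709%) lay above those of BCL11b+ID2+ (0.323% to 0.507%) and BCL11b-ID2+ (0.332% to 0.517%).

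**Figure D1:**
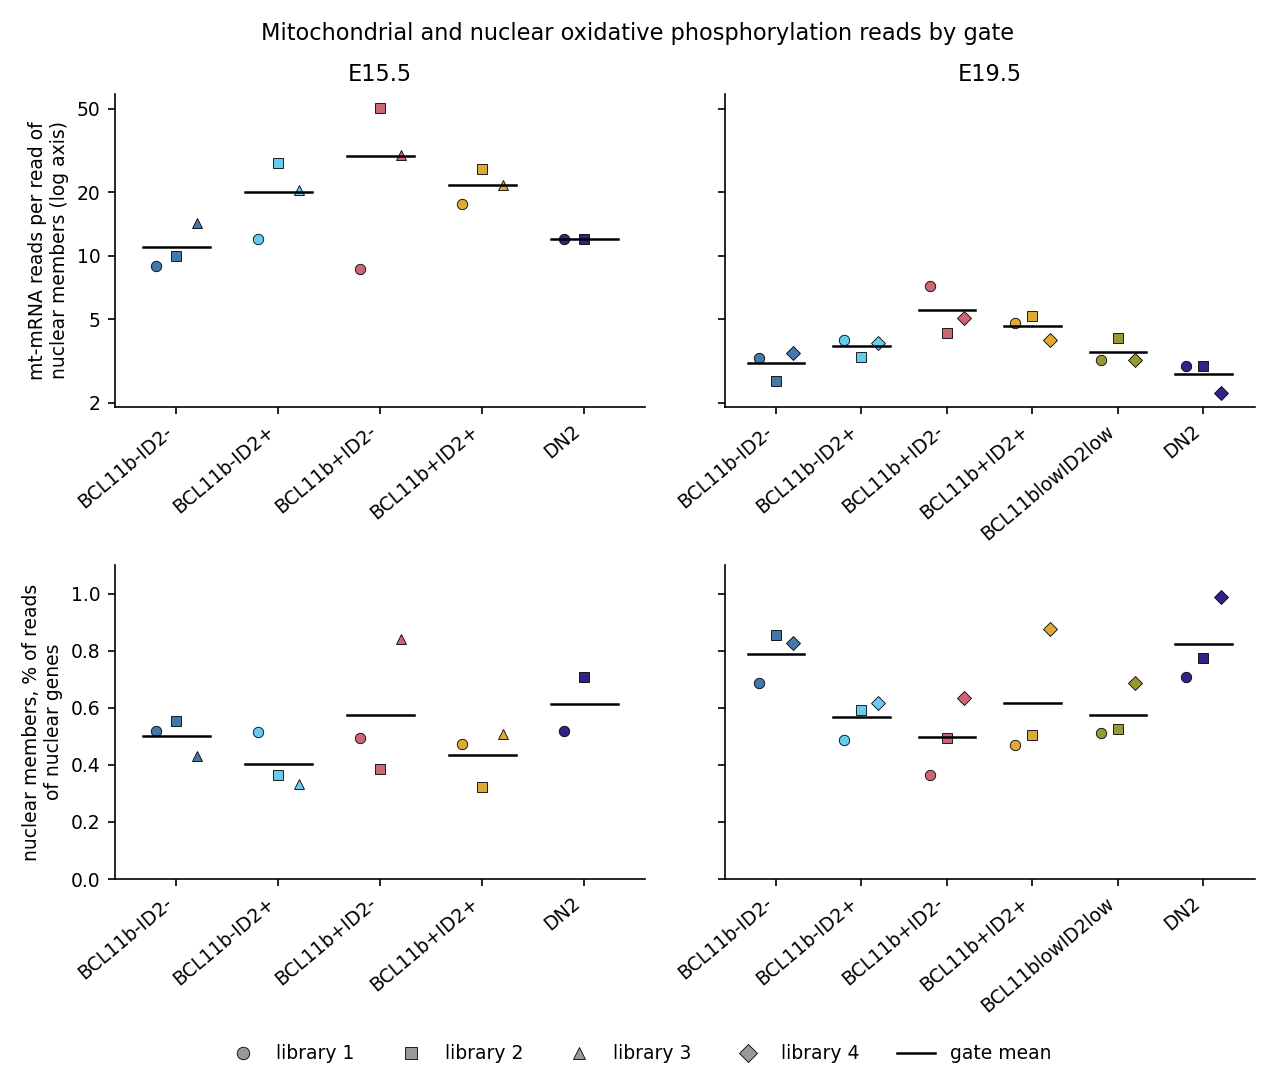
Mitochondrial mRNA reads per read of the nuclear members (top, log axis) and the nuclear members as a percentage of nuclear-gene reads (bottom) for each library, by gate, at E15.5 (left) and E19.5 (right); marker shapes give the library number and bars the gate mean. At E19.5 the top ratio is highest in BCL11b+ID2- (5.52) and lowest in DN2 (2.74), and at E15.5 the 3 BCL11b+ID2- libraries span 8.64 to 50.5.

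At E15.5, no member passed the test in any of the 6 comparisons, and the mitochondrial mRNAs differed widely between the libraries of BCL11b+ID2-. mt-Nd5, a core proton-pumping subunit of complex I, had values of 26162, 146836 and 231323 in BCL11b+ID2- libraries 1, 2 and 3, against 24525, 24921 and 39441 in BCL11b-ID2-, 91035, 53949 and 137896 in BCL11b+ID2+, 39893, 54446 and 39280 in BCL11b-ID2+, and 43896 and 54622 in DN2. mt-Cytb was at 41329, 194912 and 310299 in BCL11b+ID2- and at 49754, 51058 and 49841 in BCL11b-ID2-. Library 1 of BCL11b+ID2- thus lay within or below the BCL11b-ID2- values, and its libraries 2 and 3 above all other gates for mt-Nd5. Mitochondrial mRNA was 4.11%, 16.3% and 20.1% of the reads outside ribosomal RNA in these 3 libraries, and ribosomal RNA took 50.8%, 75.2% and 76.0% of all their reads. The mitochondrial ribosomal RNA mt-Rnr1 moved with the mRNAs, at 2244970, 6947730 and 8688650. The part of these library differences in the result was not tested.

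The test was a linear model over all libraries of a stage (limma, on log2 of the value plus 1, Benjamini-Hochberg adjustment over all genes, threshold 0.05), in which 0.00972% of genes were called in either direction between BCL11b+ID2- and BCL11b-ID2-. All 8 mitochondrial members had positive differences there, with a median of 1.54 (log2) against -0.32 over all genes, and 7 of 8 had an unadjusted p under 0.05. The smallest p belonged to mt-Nd6 (log2 difference 1.69, adjusted p = 0.514), mt-Nd4 (1.58, 0.544) and mt-Nd1 (1.5, 0.616). Of the 78 nuclear members, 4 had an unadjusted p under 0.05, and their median difference was -0.03. Without library 1 of BCL11b+ID2-, 6 mitochondrial members were called higher and were the only genes called (0.0583% of all genes): mt-Nd5 (2.67 ± 0.316 SE, adjusted p = 0.00012), mt-Cytb (2.29 ± 0.300, 0.000251), mt-Nd1, mt-Nd2, mt-Nd4 and mt-Co1, while mt-Nd6 (adjusted p = 0.106) and mt-Nd3 did not pass. It is 1 of the fits that left out each library in turn, and is given because it changed the calls.

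The other E15.5 comparisons also called 0 members with limma, and 0 with edgeR. In DN2 against BCL11b+ID2- (0% of genes called) all 8 mitochondrial members were negative, with a median of -0.99, and 6 nuclear members had an unadjusted p under 0.05, led by Atp5j2 (7.62, adjusted p = 0.468), Ndufaf5 (7.09, 0.475) and Ndufb8 (6.35, 0.535). Without library 1 of BCL11b+ID2-, mt-Cytb (-1.87) and mt-Nd5 (-1.91) were called lower in DN2, each at an adjusted p of 0.038 (0.0292% of genes were called lower). In BCL11b+ against BCL11b- among ID2+ cells (0.0778% called) the unadjusted count was 7, led by Ndufaf5 (-6.89, adjusted p = 0.215), Atp5c1 (2.3, 0.363) and Ndufa3 (-4.79, 0.384). ID2+ against ID2- had 2 such nuclear members among BCL11b+ cells (0.719% called; Uqcrc2 -4.03, adjusted p = 0.325) and 4 among BCL11b- cells (0.467% called; Ndufa3 4.44, adjusted p = 0.457). The interaction of both gates (0% called) had 4, led by Ndufb5 (7.29, adjusted p = 0.721). DESeq2 called more genes at E15.5, and its member counts were 5 in DN2 against BCL11b+ID2- (6.05% of all genes with an adjusted p), 3 and 2 for BCL11b among ID2+ (7.07%) and ID2- cells (3.81%) and 1 for ID2 among BCL11b+ cells (12.9%). They were 0 for ID2 among BCL11b- cells (4.71%) and for the interaction (4.46%).

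Single E15.5 members show how far libraries of 1 gate lay apart. Sdhd, a membrane anchor of complex II, was at 44.4, 326 and 1173 in BCL11b+ID2-, at 453, 114 and 24.3 in BCL11b-ID2-, and at 550.1 and 67.4 in DN2. Ndufaf5, a complex I assembly factor, was at 333, 359.8 and 26.5 in BCL11b-ID2+ and at 0 or 1.0 in BCL11b+ID2+, with values of 388, 25.1 and 4.05 in BCL11b-ID2-. Atp5b ran from 2255 to 17406 over the 14 libraries. The gates overlapped for Sdhd and Atp5b, and BCL11b-ID2+ lay above BCL11b+ID2+ in all libraries for Ndufaf5, whose difference did not pass.

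**Figure D2:**
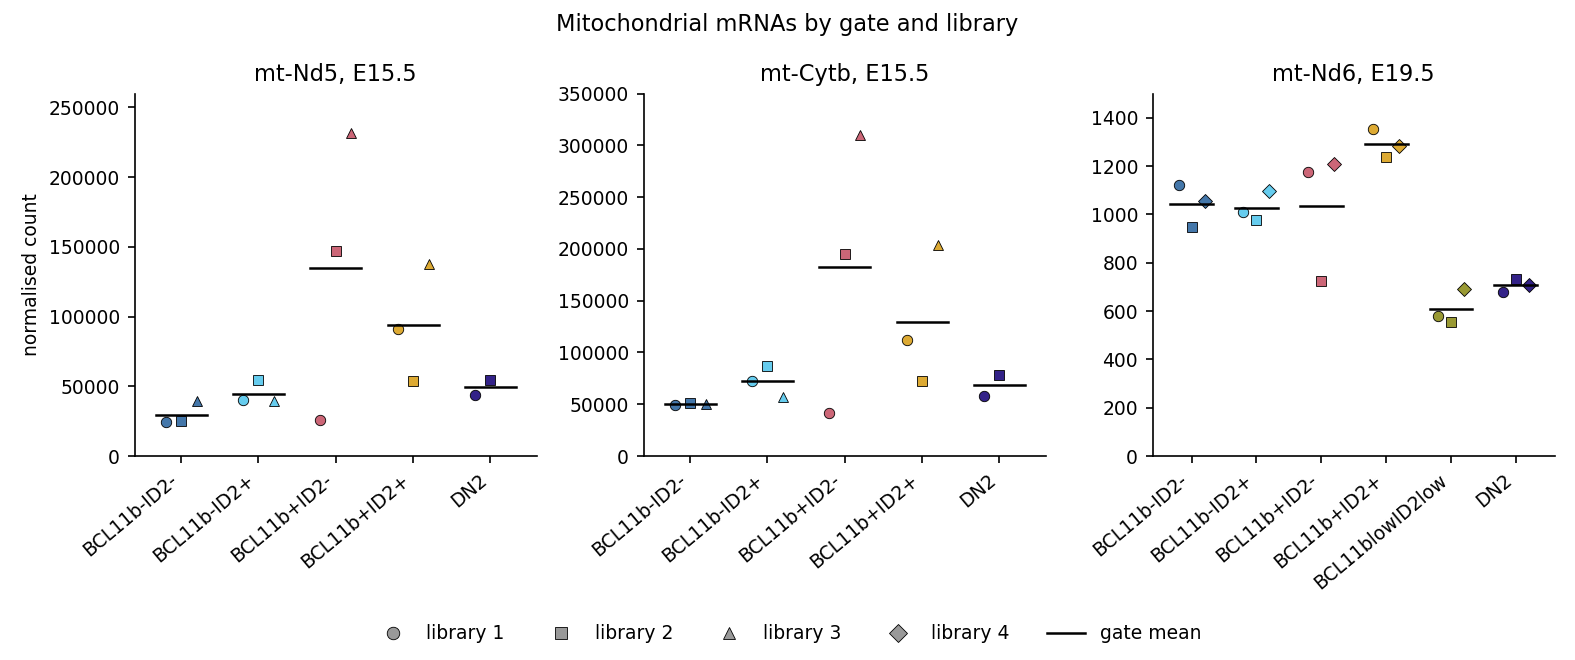
Normalised counts of mt-Nd5 and mt-Cytb by gate at E15.5 and of mt-Nd6 at E19.5, 1 point per library with marker shapes for the library number. In BCL11b+ID2- at E15.5, mt-Nd5 runs from 26162 to 231323, and at E19.5 mt-Nd6 lies between 555 and 732 in the BCL11blowID2low and DN2 libraries.

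At E19.5, nuclear members of each of the 5 complexes were called higher in DN2 cells than in BCL11b+ID2- DN1 cells, while the mitochondrial mRNA mt-Co1 was called lower. Of these calls, Sdhd, Atp5b and Atp5g1 alone, from complexes II and V, held in every fit without 1 library. Of the 85 nuclear members tested, 13 rose and 0 fell (6.77% of all genes were called higher and 9.41% lower), and 73 of 85 had a positive difference, with a median of 0.67 (log2) against -0.01 over all genes. In a bulk sample, fewer cells of a type and less RNA per cell cannot be told apart. The members that rose were 1 of 8 assembly factors (Ndufaf2), 1 of 6 nuclear core subunits (Ndufv2) and 2 of 30 other subunits (Ndufc2, Ndufa9) of complex I, 1 of 4 of complex II (Sdhd), 2 of 7 of complex III (Uqcr10, Uqcr11), 2 of 14 of complex IV (Cox5a, Cox7b) and 4 of 16 of complex V (Atp5b, Atp5g1, Atp5g3, Atp5j). The median differences of these groups lay between 0.57 in complex III and 0.92 among the assembly factors.

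Sdhd (9:50596357–50603812, minus strand, GRCm38) had normalised counts of 612, 482 and 1025 in DN2 libraries 1, 2 and 4, and of 158, 196 and 163 in BCL11b+ID2-. It was at 316.9, 277, 394 in BCL11b+ID2+, at 275, 323, 430.5 in BCL11b-ID2+, at 469.6, 710.4, 615 in BCL11b-ID2- and at 370.2, 285, 447 in BCL11blowID2low. BCL11b+ID2- was the lowest gate, with all 3 of its libraries below every other library, and DN2 and BCL11b-ID2- the highest. The DN2 mean of 706 ± 283 was 4.1-fold the BCL11b+ID2- mean of 172 ± 20.6 (log2 difference 1.96 ± 0.279 SE, n = 3 each, limma adjusted p = 2.59e-05). The other complex II genes had smaller differences that did not pass: Sdha, the flavoprotein that oxidises succinate, 0.54 (adjusted p = 0.135), Sdhb, the iron-sulphur subunit, 0.71 (0.221), and Sdhc, the second membrane anchor, 0.09 (0.867).

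In complex V, Atp5b (10:128083273–128090391, plus strand) was at 5015, 4871 and 5246 in DN2 and at 2291, 3544 and 3505 in BCL11b+ID2-, with no overlap. The means were 5044 ± 189 and 3113 ± 713 (log2 difference 0.72, n = 3 each, limma adjusted p = 0.00521). Atp5g1, which encodes a copy of the membrane c-ring subunit, was at 112, 93.9 and 58.1 against 12.1, 22.5 and 3.69 (2.92 ± 0.653 SE, limma adjusted p = 0.00307), again with no overlap. Its transcript shares 411 bases at 99.757% identity with Gm10039, which had 317 to 362 in DN2 and 45.1 to 110.3 in BCL11b+ID2- (2.2 ± 0.329, limma adjusted p = 4.87e-05), so the split of reads between the pair is uncertain, and the summed value was 427 ± 29.3 against 90.4 ± 38.6. The isogene Atp5g3 rose by 1.1 with overlapping libraries (309.5, 392 and 650.4 against 102, 246 and 316), and Atp5j, the coupling factor 6 of the stalk, by 0.92.

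In complex III, Uqcr10 (11:4701973–4704342, minus strand), a small structural subunit, was at 187, 199 and 344 in DN2 and at 55.5, 58.9 and 169 in BCL11b+ID2- (1.5 ± 0.466 SE, limma adjusted p = 0.0299). Uqcr11, the smallest subunit, was at 72.1, 89.2 and 132 against 26.0, 20.4 and 36.0 (1.79 ± 0.486, limma adjusted p = 0.0132). The libraries of both genes did not overlap, and Uqcr11 shares 171 bases at 98.83% identity with the pseudogene Gm16418. In complex IV, Cox7b, a small subunit encoded on the X chromosome, was at 362, 344 and 661 against 69.4, 152 and 288 (1.58, limma adjusted p = 0.0187), and Cox5a rose by 1.03.

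In complex I, Ndufc2, an accessory subunit of the membrane arm, was at 339, 381 and 517 in DN2 and at 52.1, 209 and 249.96 in BCL11b+ID2- (1.53 ± 0.424 SE, limma adjusted p = 0.015). The assembly factor Ndufaf2 was at 103, 149.8 and 281 against 12.1, 18.2 and 71.0 (2.64 ± 0.773, limma adjusted p = 0.0209). Ndufv2, a core subunit of the NADH-oxidising module, rose by 1.28 and Ndufa9, an accessory subunit at the junction of the arms, by 1.17. For Ndufc2, Ndufaf2, Ndufv2 and Ndufa9 the libraries of the gates did not overlap, and over all members 26 of 85 lay wholly higher in DN2 (14.2% of all genes) and 0 wholly lower (16.1%).

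The mitochondrial members went the other way or showed no call. mt-Co1 was at 20249, 23661 and 24098 in DN2 and at 34087, 27369 and 41970 in BCL11b+ID2-, with no overlap. The means of 22669 ± 2107 and 34476 ± 7308 differed by -0.59 ± 0.167 SE (log2, n = 3 each, limma adjusted p = 0.0175). Of the 8 mitochondrial members 3 had positive and 5 negative differences, with a median of -0.31, and mt-Nd4 (-0.42, adjusted p = 0.0617), mt-Nd6 (-0.51, 0.064) and mt-Cytb (-0.35, 0.118) came nearest to the threshold among the rest. The adjusted p of the ribosomal RNAs mt-Rnr1 and mt-Rnr2 was at least 0.248 in all E19.5 comparisons.

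Sdhd, Atp5b and Atp5g1 were called in every fit that left out 1 of the 6 libraries, and the other 10 nuclear calls and mt-Co1 were each lost in at least 1 of them. Member calls fell from 14 to 4 without library 1 of BCL11b+ID2- and to 4 without library 4 of DN2, to 9 without library 2 of DN2, and lay at 11 to 15 in the other 3 fits. Calls over all genes were 2240 with all libraries and 1572 to 2082 in the fits without 1. Cox5a, Atp5g3, Ndufv2, Uqcr10 and mt-Co1 were also lost with edgeR and without the filter, and Cox5a, Atp5g3, Uqcr10, Ndufa9, Ndufc2 and Cox7b with only the groups compared. The mt-Co1 difference shrank to -0.48 (adjusted p = 0.158) when values were scaled to nuclear reads. Summed NK-cell markers were 4362–5425 in BCL11b+ID2- and 858–1794 in DN2, and the part of this in the differences was not tested.

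**Figure D3:**
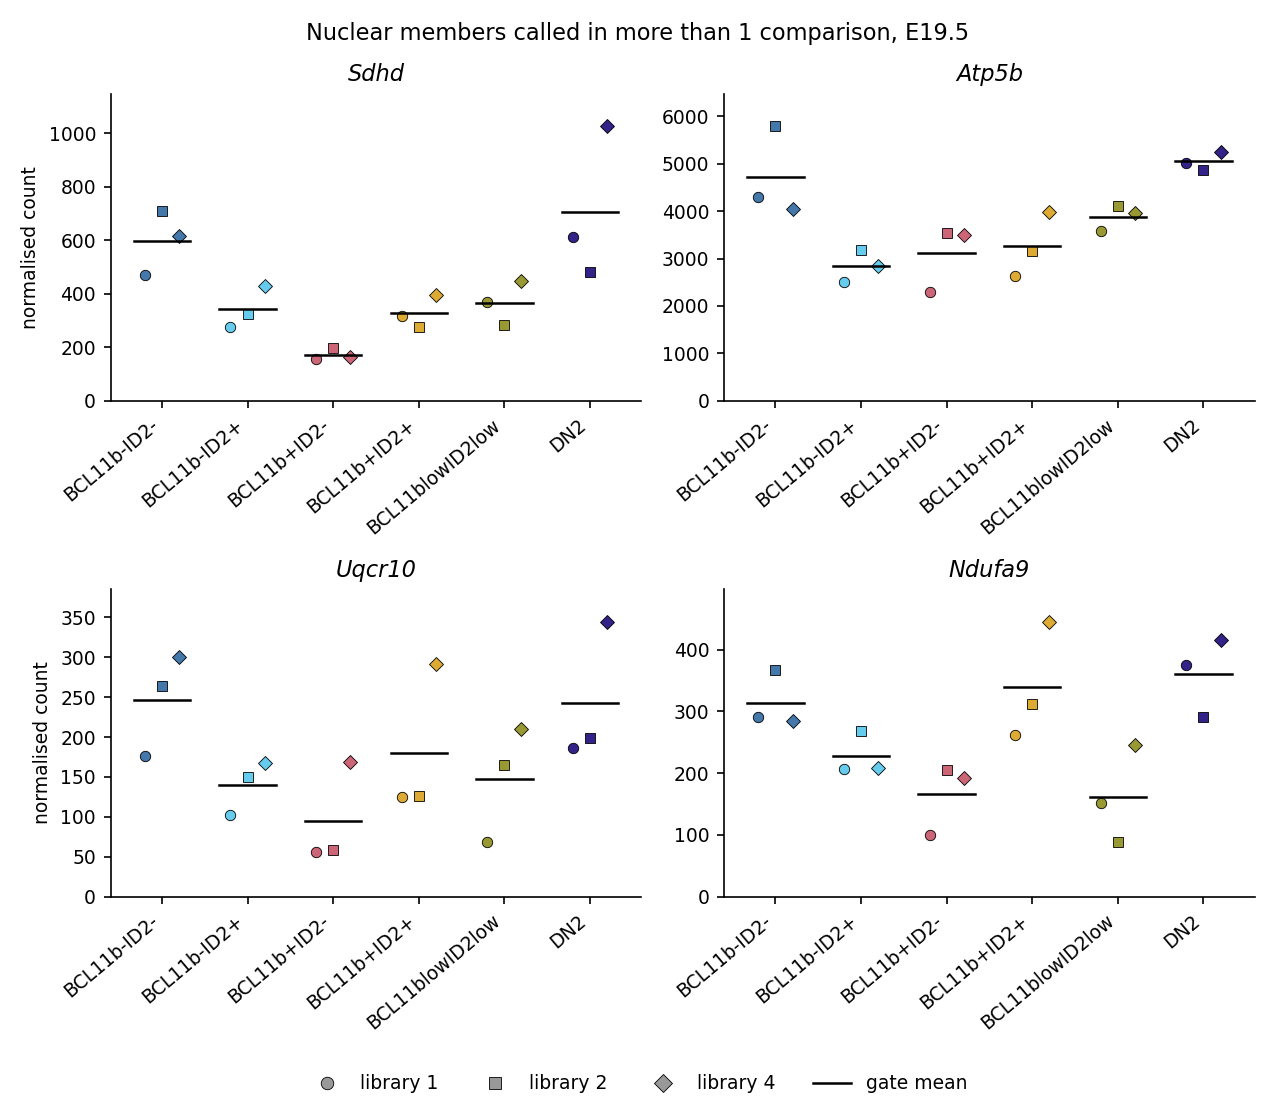
Normalised counts of Sdhd, Atp5b, Uqcr10 and Ndufa9 in each E19.5 library, by gate, with marker shapes for the library number. BCL11b+ID2- holds the lowest Sdhd values (158 to 196), and the DN2 and BCL11b-ID2- libraries lie above those of BCL11b+ID2- for all 4 genes.

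The same BCL11b+ID2- libraries were the lower side when BCL11b+ and BCL11b- cells were compared among ID2- DN1 cells, so this comparison shares them with the one above and is no independent support for it. Here 5 of 85 nuclear members fell and 0 rose (7.42% and 7.51% of all genes): Sdhd, Atp5b, Atp5g1, Uqcr10 and Cox6a2. Cox6a2 entered the fit through its BCL11b-ID2- values alone, so its call was built in and 4 remain without it. Calls were no more frequent than over all genes, but differences were negative for 76 of 85, with a median of -0.60 against -0.05 over all genes, and for 16 of 16 in complex V (median -0.59) and 6 of 6 nuclear core subunits of complex I (-0.41). BCL11b-ID2- lay wholly above BCL11b+ID2- for 29 of 85 members (16.3% of all genes), and wholly below for 0 (15.3%).

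Sdhd was at 598 ± 121 (n = 3) in BCL11b-ID2- and 172 ± 20.6 in BCL11b+ID2-, 3.47-fold apart (-1.77 ± 0.279 SE, limma adjusted p = 8.59e-05). Atp5b was at 4299, 5780.5 and 4044 in BCL11b-ID2-, above the 3 BCL11b+ID2- values given earlier (-0.61 ± 0.173, limma adjusted p = 0.0181). Uqcr10 was at 176, 263 and 301 (-1.54 ± 0.466, limma adjusted p = 0.0266), and Atp5g1 at 46.3, 34.7 and 45.1 (-1.92 ± 0.653, limma adjusted p = 0.04999). Sdha, Sdhb and Sdhc differed by -0.52, -0.78 and -0.38 and did not pass (adjusted p 0.155 to 0.352). The 8 mitochondrial members had 5 positive and 3 negative differences, a median of 0.15 and 0 calls with limma, edgeR or DESeq2, and 3 had an unadjusted p under 0.05.

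Sdhd was called in every fit without 1 library. Atp5b was lost without library 1 of BCL11b+ID2- (adjusted p = 0.149) or library 2 of BCL11b-ID2- (0.132), Uqcr10 in 4 of 6 such fits (adjusted p up to 0.133) and Atp5g1 in 5 of 6 (up to 0.216). Atp5b was also lost with only the groups compared (0.0685), and Uqcr10 (0.0705) and Atp5g1 (0.109) with edgeR. The member count was 2 without either of the 2 libraries named for Atp5b, 3 without library 4 of BCL11b-ID2- and 8 without library 2 or 4 of BCL11b+ID2-. Calls over all genes were 2067 with all libraries and 1441 to 1981 in the fits without 1. The markers of macrophages and granulocytes summed to 2184–3482 in BCL11b-ID2- and 15.6–47.0 in BCL11b+ID2-, and those of T-lineage cells were highest in BCL11b+ID2-; their part in the differences was not tested.

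**Figure D4:**
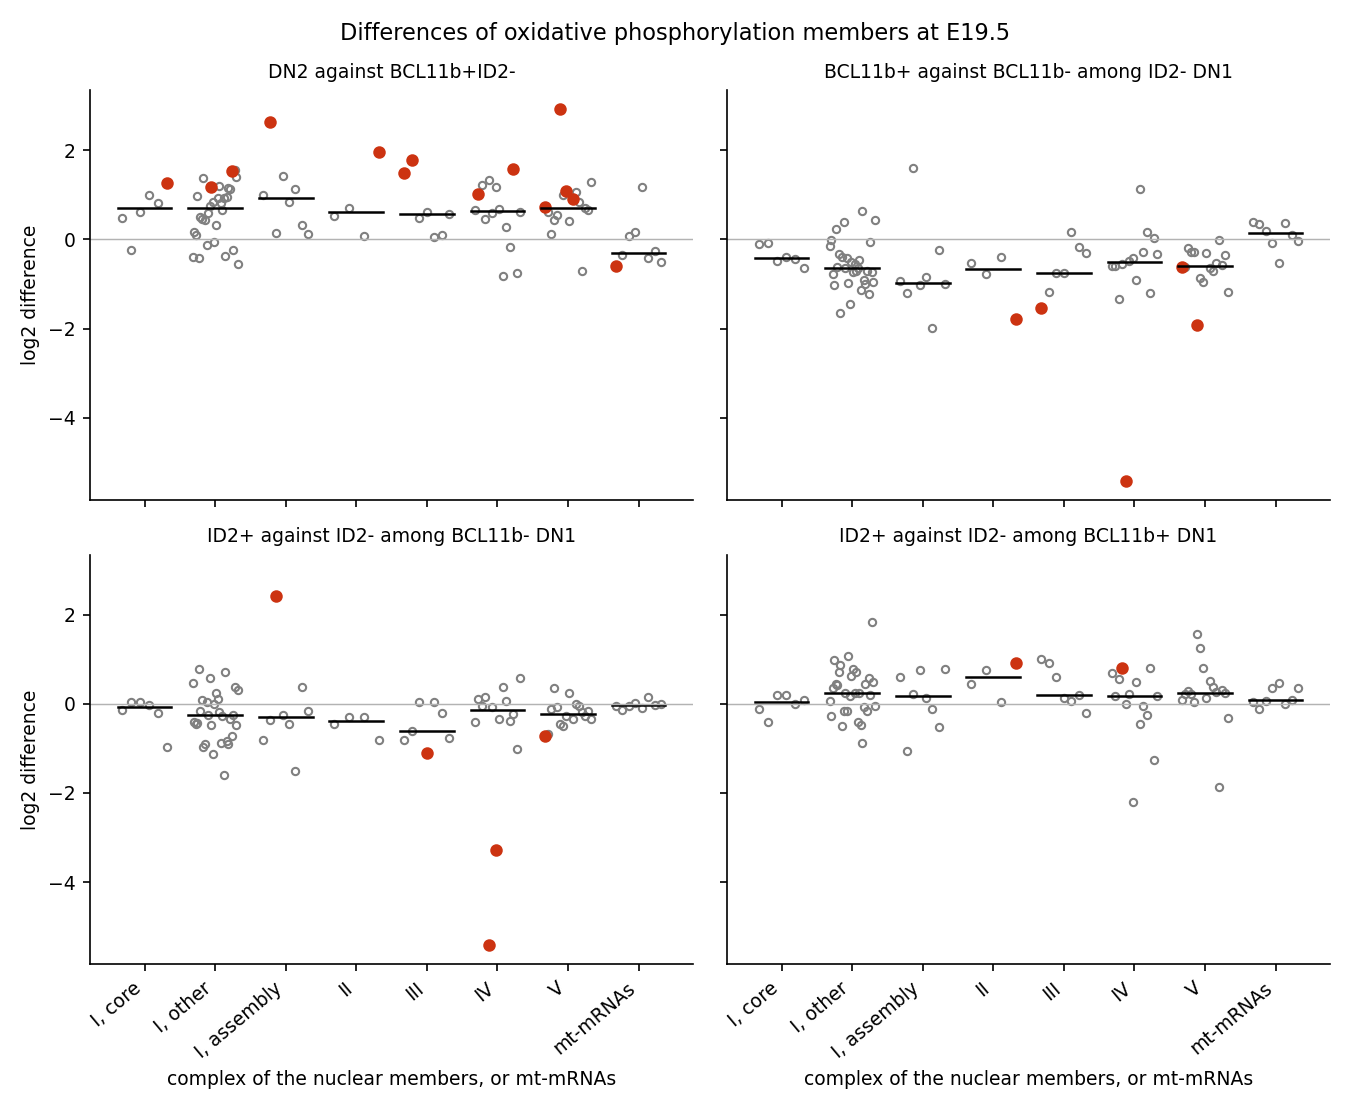
Log2 difference of every tested member in 4 E19.5 comparisons, grouped by complex and, at the end, the mitochondrial mRNAs; red filled points were called, grey open points were not, and bars are medians. The nuclear groups lie mostly above 0 in DN2 against BCL11b+ID2- (median 0.67) and below 0 in BCL11b+ against BCL11b- among ID2- cells (median -0.60), 2 comparisons that share the BCL11b+ID2- libraries.

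Among BCL11b- DN1 cells, the ID2+ gate was lower than the ID2- gate for 4 nuclear members and higher for 1 (7.03% and 8.82% of all genes were called lower and higher), so calls were no more frequent than over all genes. The comparison shares its BCL11b-ID2- libraries with the one above. Those that fell were Cox6b2, Atp5b, Uqcrc2 and Cox6a2, whose call was again built in by its way through the minimum, and Ndufaf3 rose. Atp5b was at 2512, 3178 and 2846 in BCL11b-ID2+, below the 3 BCL11b-ID2- libraries (-0.71 ± 0.173 SE, n = 3 each, limma adjusted p = 0.00519). Uqcrc2, a core protein of complex III, was at 245, 173 and 259.8 against 337, 668 and 483 (-1.10 ± 0.32, limma adjusted p = 0.0198). The complex I assembly factor Ndufaf3 went the other way, at 58.7, 99.0 and 119 against 3.66, 27.5 and 34.6 (2.42 ± 0.817, limma adjusted p = 0.0462). Over all nuclear members 62 of 85 differences were negative, with a median of -0.25 against -0.01 over all genes, and 0 of 8 mitochondrial members were called by limma, edgeR or DESeq2 or had an unadjusted p under 0.05. Atp5b was lost without library 2 of BCL11b-ID2- (adjusted p = 0.0518), Uqcrc2 in 3 of 6 fits without 1 library (up to 0.132), Cox6b2 in 2 (up to 0.108) and Ndufaf3 in 5 (up to 0.27). Cox6b2 was also lost with edgeR (0.0605), and Ndufaf3 with edgeR (0.076), without the filter (0.0694) and with scaling to nuclear reads (0.0653).

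Among BCL11b+ DN1 cells the ID2+ gate had 2 of 85 nuclear members higher and 0 lower (5.12% and 3.61% of all genes), no more than over all genes. The comparison shares its BCL11b+ID2- libraries with DN2 against BCL11b+ID2- and with BCL11b among ID2- cells, and is no independent support for them. Sdhd was 1.91-fold higher in BCL11b+ID2+ (329.6 ± 59.5 against 172 ± 20.6, log2 difference 0.92 ± 0.279 SE, n = 3 each, limma adjusted p = 0.0397). Cox6a1, the common isoform of a complex IV subunit, was at 725, 778 and 843 against 318, 612 and 467 (0.80 ± 0.220 SE, limma adjusted p = 0.0227). Both were without overlap, and 61 of 85 differences were positive, with a median of 0.22 against 0.00 over all genes. Without library 4 of BCL11b+ID2+ or library 1 of BCL11b+ID2- neither was called. Sdhd was lost in 5 of 6 fits without 1 library (adjusted p up to 0.166) and Cox6a1 in 3 (up to 0.159). Both were lost with library weights (0.0663 and 0.0533) or only the groups compared (0.0752 and 0.0954), and Sdhd also without the filter (0.0702) and with scaling to nuclear reads (0.0521).

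The effect of ID2 was tested for a difference between BCL11b+ and BCL11b- cells. It reuses the libraries of the gate comparisons above, among them the low BCL11b+ID2- libraries, and is no independent support for them. This interaction was positive and called for 4 nuclear members (4.57% of all genes, a share near that of the members) and negative and called for 0 (4.7%): Sdhd (1.73 ± 0.394 SE, limma adjusted p = 0.00639), Atp5b (0.79 ± 0.244, 0.0434), Ndufa9 (1.52 ± 0.484, 0.0491) and Cox6a2. The Cox6a2 value restates its 1 high gate, through which it passed the minimum, and neither DESeq2 (adjusted p = 0.0957) nor edgeR (1) called it, so 3 calls remain without it. Ndufa9 was at 262, 312 and 444 in BCL11b+ID2+ and 101, 205 and 193 in BCL11b+ID2-, but at 207, 268 and 208 in BCL11b-ID2+ and 292, 367 and 284 in BCL11b-ID2-. For this gene, ID2+ lay wholly above ID2- among BCL11b+ cells and wholly below it among BCL11b- cells. Over the 85 nuclear members 68 interaction values were positive, with a median of 0.56 against 0.01 over all genes. Sdhd was called in every fit without 1 library, while Atp5b and Ndufa9 were not (adjusted p up to 0.143 and 0.139) and were also lost with edgeR (0.086 and 0.0675) and without the filter (0.0536 and 0.0852).

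BCL11b+ against BCL11b- among ID2+ DN1 cells gave 0 member calls with limma, where 6.03% of all genes were called, and 0 with edgeR and 1 with DESeq2 (6.68% of all genes). The unadjusted p was under 0.05 for 4 nuclear and 3 mitochondrial members. Cox8a, a complex IV subunit, had the smallest p among the nuclear members (326 ± 40.6 against 582 ± 291, log2 difference -0.73, limma adjusted p = 0.114), followed by Ndufa8 (-1.13, 0.182), and mt-Co1 led the mitochondrial ones (0.46, 0.13). The nuclear median was -0.00, and all 8 mitochondrial members were positive, with a median of 0.29.

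In BCL11blowID2low, which exists at E19.5 alone, mt-Nd6 was the member that stood out against both reference gates. mt-Nd6 (M:13552–14070) is the core complex I gene on the minus strand of the mitochondrial chromosome and overlaps the end of mt-Nd5, and the sources used here do not give the strand of counting, so sense and antisense reads cannot be told apart. Its values were 578, 555 and 691 in BCL11blowID2low, 1121, 947 and 1055 in BCL11b-ID2-, 1355, 1237 and 1285 in BCL11b+ID2+, 1009, 976 and 1097 in BCL11b-ID2+, 1173, 724 and 1206 in BCL11b+ID2-, and 678, 732 and 709 in DN2. The BCL11blowID2low and DN2 libraries thus lay below all those of the other 4 gates apart from library 2 of BCL11b+ID2-, which was within the DN2 range. mt-Nd6 fell by 0.78 ± 0.186 SE (log2) against BCL11b-ID2- (n = 3 each, limma adjusted p = 0.00561) and by 1.09 ± 0.186 against BCL11b+ID2+ (0.000757), and both calls held in every fit without 1 library. Against BCL11b+ID2+ all 8 mitochondrial members were negative (median -0.36), mt-Nd6 was the 1 call among them (2.97% of all genes were lower and 1.46% higher), and 0 of 85 nuclear members were called by limma or edgeR, with 1 by DESeq2 (5.96% of all genes) and 4 at an unadjusted p under 0.05.

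Against BCL11b-ID2-, 5 nuclear members also fell (7.35% of all genes were lower) and 0 rose (6.7%), no more than over all genes: Cox6b2, Ndufab1, Ndufb8, Ndufa9 and Cox6a2, the last built in as above. Ndufab1, the mitochondrial acyl carrier protein, was at 18.3, 12.3 and 16.9 against 43.9, 88.3 and 48.0 (-1.81, limma adjusted p = 0.0385). A processed pseudogene, Ndufab1-ps, holds a stretch of it at 99.739% identity over 383 bases, so its reads are uncertain. Ndufb8, an accessory subunit of the membrane arm of complex I, was at 34.9, 99.5 and 131 against 143, 229 and 184 (-1.23, limma adjusted p = 0.0447), and Ndufa9 at 151, 88.3 and 245 against the values above (-1.07, limma adjusted p = 0.0386). All 3 were without overlap. Ndufab1 was lost in all 6 fits without 1 library (adjusted p 0.0541 to 0.179), Ndufa9 in 5 (up to 0.224) and Ndufb8 in 4 (up to 0.273), and all 3 were also lost with edgeR, library weights, no filter or only the groups compared (adjusted p up to 0.155). The nuclear median was -0.32 against -0.14 over all genes.

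Of the tissue-restricted isoforms of complex IV at E19.5, Cox6a2 and Cox4i2 had their highest means in BCL11b-ID2-, and Cox6b2 in DN2, whose libraries overlapped those of BCL11b-ID2-. Cox6a2 (7:128205435–128206387, minus strand), the heart and muscle isoform of subunit 6a, was at 36.6, 41.2 and 48.0 in BCL11b-ID2-, at 0 in all 9 libraries of BCL11b+ID2+, BCL11b+ID2- and BCL11b-ID2+, at 1.66, 0 and 0 in BCL11blowID2low, and at 8.48, 0 and 0.727 in DN2. The 137 reads in BCL11b-ID2- made it at least 42.0-fold higher than in BCL11b+ID2+, at least 36.5-fold higher than in BCL11b+ID2- and at least 65.7-fold higher than in BCL11b-ID2+, against a floor of 3 reads over each gate. BCL11blowID2low had 1 read, for a ratio of 116 with a 95% counting interval of 20.4 to 4597. Cox6a2 passed the minimum through the 3 BCL11b-ID2- libraries alone, so a difference was built into its passing, and its values are a description with no test.

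Cox4i2, the lung isoform of subunit 4, showed the same gate with too few libraries to be tested: 31.7, 26.8 and 9.60 in BCL11b-ID2-, 0.727 in 1 DN2 library and 0 in the other 14 libraries. Its 73 reads made it at least 22.4-fold higher than in BCL11b+ID2+, at least 19.46-fold than in BCL11b+ID2-, at least 35.0-fold than in BCL11b-ID2+ and at least 20.5-fold than in BCL11blowID2low. Cox6b2, the testis isoform of subunit 6b, differed in pattern. It was at 29.3, 23.1 and 42.3 in BCL11b-ID2-, at 72.1, 83.2 and 23.3 in DN2 and at 43.4, 23.6 and 11.1 in BCL11b+ID2-, but at 8.90, 2.21 and 3.30 in BCL11b+ID2+, 0, 3.07 and 7.68 in BCL11b-ID2+ and 0, 0 and 1.61 in BCL11blowID2low. All libraries of the ID2- gates and DN2 thus lay above all those of the ID2+ and BCL11blowID2low gates. The difference was -3.27 ± 0.911 SE for ID2+ among BCL11b- cells (limma adjusted p = 0.0147) and -4.52 ± 0.911 for BCL11blowID2low against BCL11b-ID2- (0.00122).

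The common isoforms were seen in every E19.5 library, at no less than 318 for Cox6a1, 127 for Cox6b1 and 309 for Cox4i1. Between the 2 gates given next, BCL11b-ID2- lay wholly above BCL11blowID2low for Cox6b1 and wholly below it for Cox6a1. For Cox4i1 the 2 gates overlapped. Cox6a1 was at 700.1, 662 and 608 in BCL11b-ID2- and at 991, 1006 and 846 in BCL11blowID2low, Cox6b1 at 321, 394 and 356 and at 234, 131 and 287, and Cox4i1 at 671, 671 and 761 and at 327, 379 and 1032. Per kilobase at E19.5, Cox6a1 stood at 1001 and Cox6a2 at 11.2, Cox6b1 at 447 and Cox6b2 at 19.0, and Cox7a2 and Cox7a2l at 163 and 161 against 8.87 for Cox7a1, the heart and muscle isoform. Cox8a was at 271 to 917 in the E19.5 libraries, and its muscle isoform Cox8b did not exceed 6.64. Ndufa4 was at 34.7 to 514, while the hypoxia-induced Ndufa4l2 was seen in 1 library (5.34). Of the 3 c-ring genes, Atp5g3 had 160.1 per kilobase, Atp5g1 8.40 and Atp5g2 2.25, though all 3 encode the same mature protein. Near-identical copies elsewhere cover up to 69.0% of an Atp5g1 transcript and up to 100% of an Atp5g2 transcript. None was found for Atp5g3 among annotated transcripts of other genes. The levels of Atp5g1 and Atp5g2, and so the order of the 3, are therefore uncertain. The exon length used was 4912 bases for Atp5g1, 2181 for Atp5g3 and 1675 for Atp5g2, and the long Atp5g1 length also lowers its value per kilobase.

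**Figure D5:**
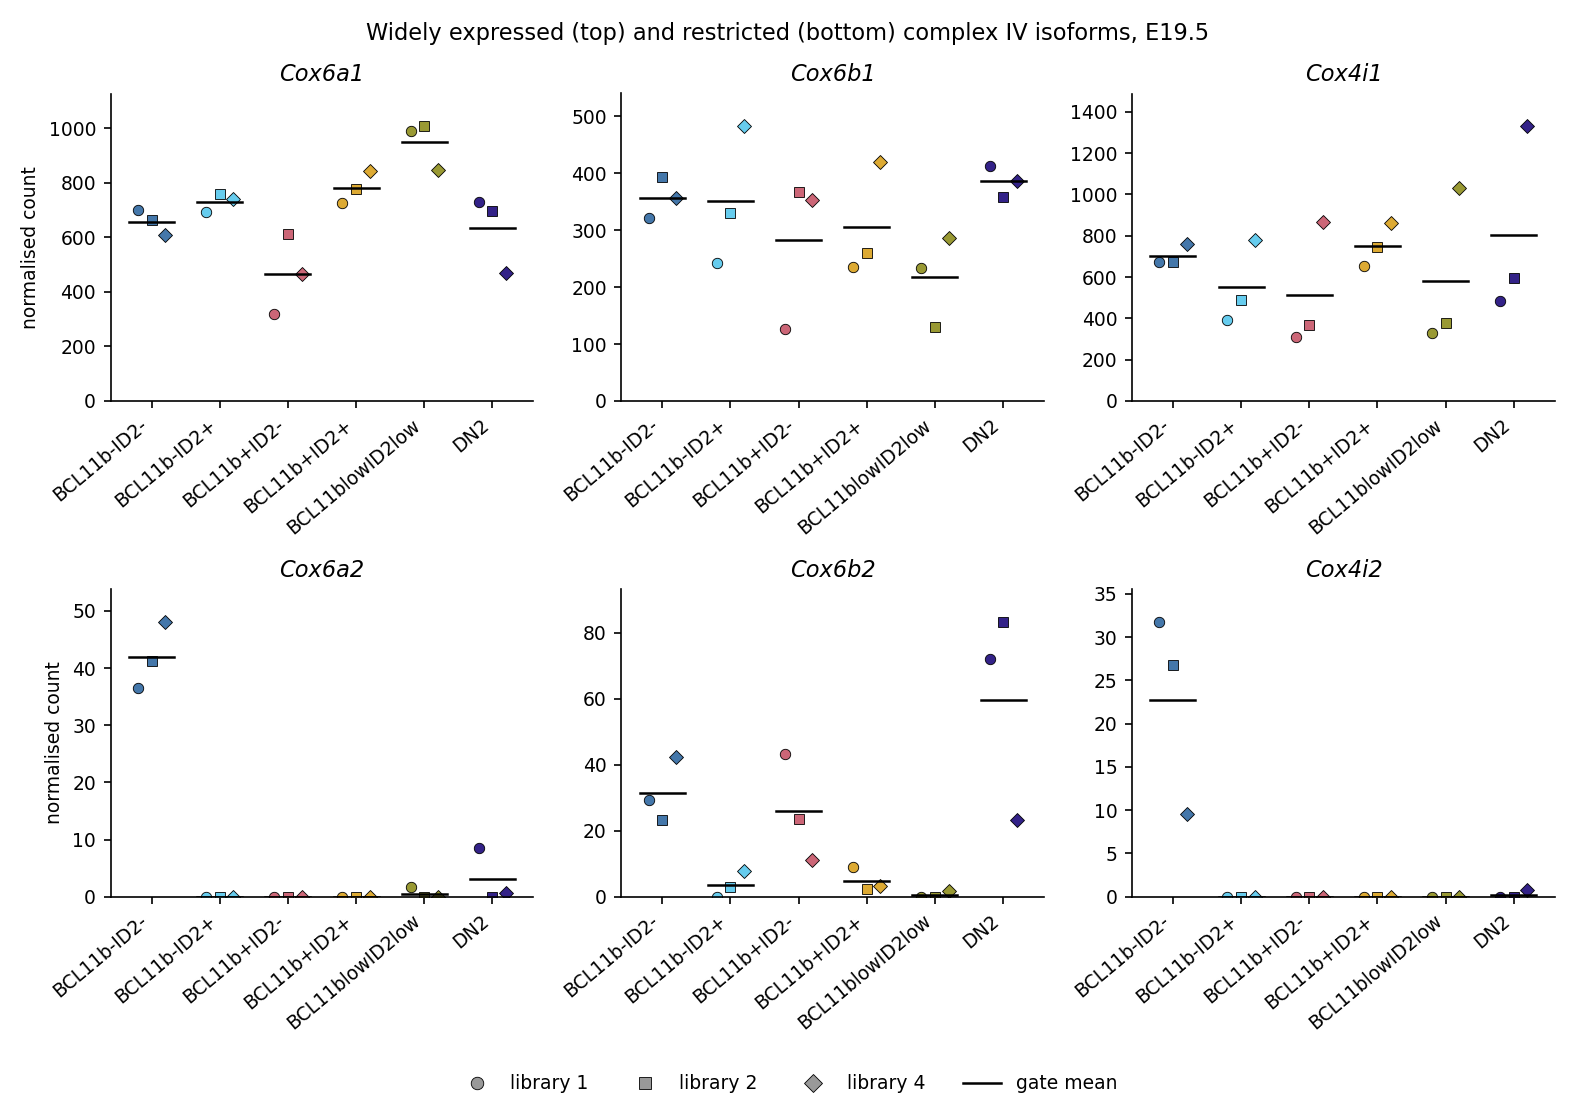
Normalised counts of the common (top: Cox6a1, Cox6b1, Cox4i1) and tissue-restricted (bottom: Cox6a2, Cox6b2, Cox4i2) complex IV isoforms in each E19.5 library, by gate, with marker shapes for the library number. Cox6a2 and Cox4i2 are highest in the 3 BCL11b-ID2- libraries (36.6 to 48.0 and 9.60 to 31.7), and Cox6b2 is also seen in DN2 and BCL11b+ID2-.

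The summed markers of macrophages and granulocytes, B cells, erythroid cells and stroma had their highest means in BCL11b-ID2-. Cox6a2 and Cox4i2 did too, but Cox6b2 did not. Beside the macrophage, B-cell, erythroid and stromal sums given above, Siglech, a marker of plasmacytoid dendritic cells, was at 65.9, 46.3 and 56.7 in BCL11b-ID2- and at most 0.67 elsewhere. The whole plasmacytoid dendritic list, added after values were seen, did not follow Siglech. It summed to 1390–1669 in BCL11b-ID2-, below BCL11b+ID2- (8008–11546), BCL11blowID2low (2831–3122) and BCL11b+ID2+ (1754–2827). The part of such cells in the Cox6a2, Cox4i2 and Sdhd values of BCL11b-ID2- was not tested.

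Genes around the chain were counted in lists by function. In DN2 against BCL11b+ID2- (all genes: 6.77% higher, 9.41% lower, median -0.01), 2 of 18 biogenesis genes rose (Lrpprc, which stabilises mitochondrial mRNA, by 1.16, and Tfb1m by 2.70) with a list median of 0.50. In the TCA cycle, 2 of 13 rose (Idh3g by 1.24 and Suclg2 by 1.51) and Dlst fell by 1.04 (median 0.70), and among 11 carriers and couplers Slc25a5, an ADP/ATP carrier, rose by 0.67 and the outer-membrane channel Vdac1 by 1.11. The uncoupling protein gene Ucp2 fell by 1.68, from 5124 ± 772 in BCL11b+ID2- to 1611 ± 380 in DN2. None of 16 assembly factors of complexes III and IV was called or had an unadjusted p under 0.05 (limma; median -0.07), and of 15 glycolysis genes 0 rose and 2 fell (Slc2a3 by 1.5 and Pfkp by 1.21; median -0.11).

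In BCL11b+ against BCL11b- among ID2- cells, which shares the BCL11b+ID2- libraries, Ucp2 rose by 1.86, Vdac1 fell by 0.91 and Lrpprc by 0.95, 3 of 13 TCA cycle genes fell (Idh3g by 1.25, Fh1 by 1.56 and Suclg2 by 1.68) and 2 of 15 glycolysis genes rose (Pfkp by 1.44 and Hk1 by 1.46), where 7.51% of all genes were higher and 7.42% lower. In BCL11blowID2low against BCL11b-ID2-, 7 of 15 glycolysis genes rose, among them Ldha and Pkm, where 6.7% of all genes were higher, with a list median of 0.78 against -0.14 over all genes, beside a median of -0.32 for the nuclear oxidative phosphorylation members.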

How the data were processed

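Total RNA of sorted cells was extracted with an RNeasy Plus micro kit, amplified with the Ovation RNA-seq System V2, sheared on a Covaris M220 and barcoded with an Ovation Ultralow system, per the labels' protocols. Per the submitters' processing notes, Trim Galore 0.50, STAR 2.6.0a, DESeq2 1.18.1 and GRCm38 were used. The authors deposited 1 table a stage of DESeq-normalised read counts, a signal from which whole reads were recovered for 100% of values above 0 (tolerance 0.01 reads) and used for totals, edgeR and DESeq2. The E15.5 columns carry numbers alone and were matched to samples by barcode number, and 0 columns had no sample. The counting tool and strand are not given in the sources used here.

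Symbols, lengths and copies came from the GENCODE vM21 annotation of GRCm38, with 5 and 6 identifiers lacking a symbol. The length of a gene was that of all its annotated exons together. Of 19404 and 26244 genes, those at 10 or more in 3 libraries were tested on log2(value + 1), a scale that understates differences of low genes, with limma 3.58.1 (R 4.3.3; trend, robust, all libraries of a stage in 1 fit) in 14 comparisons, and a difference was called at a Benjamini-Hochberg adjusted p under 0.05. Stages were not tested against each other. Alternatives were edgeR 4.0.16, DESeq2 1.42.0, TMM scaling, scaling to nuclear reads, a pseudocount of 8, no filter, library weights, only the groups compared, a replicate block and leaving out each library. The main limma fit was run on simulated counts with large known changes and independent libraries. That setting is simpler than these data and does not show how the fit performs on them. Copies were sought with BLAST 2.17.0 among annotated transcripts, on the same strand. Counting intervals cover counting error only.

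The members and all lists were chosen with earlier results of these data known. Text names all mitochondrial members, nuclear members that passed in a comparison (the 6 largest in full where over 12 did), those with the smallest p where none did, the highest and lowest per length in each complex, and isoform pairs, apart from a value that is not reported here.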

Additional observations from a re-analysis of the deposited data

Results flagged for a closer look

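The interaction term of the limma fit at E19.5 was called for 3 nuclear members beside Cox6a2. It tests whether the difference between ID2+ and ID2- DN1 cells is the same among BCL11b+ and BCL11b- cells. The term reuses the libraries of the gate comparisons above, among them the BCL11b+ID2- libraries in which Sdhd was lowest, and is not a separate result. Over all genes, 4.57% were called positive and 4.7% negative, a share near that of the members. The values, as the log2 difference among BCL11b+ cells minus that among BCL11b- cells, were 1.73 for Sdhd (limma adjusted p = 0.00639), 0.79 for Atp5b (0.0434) and 1.52 for Ndufa9 (0.0491). Sdhd was called in all 12 fits that left out 1 library, Atp5b in 5 and Ndufa9 in 3. Atp5b was also lost with DESeq2, edgeR, no filter and only the groups compared, and Ndufa9 with TMM scaling, edgeR and no filter. Cox6a2 had a value of 5.42 that is given with no test: it passed the minimum through the 3 BCL11b-ID2- libraries alone and was at 0 in the 9 libraries of the other gates, and DESeq2 (adjusted p = 0.0957) and edgeR (1) did not call it.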

How the results depend on the processing

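Of the 37 calls at E19.5, none changed direction under another setting. They were kept by DESeq2 in 33, TMM scaling 36, scaling to nuclear reads 33, a pseudocount of 8 36, library weights 30, no filter 24, only the groups compared 23 and edgeR 22, and 12 were called in every fit that left out 1 library, 4 of them Cox6a2, whose calls its way through the filter built in. Member counts moved as follows, and the cause was not tested. Shares over all genes are not given beside these counts, so a move is not read as a result about the members. For DN2 against BCL11b+ID2- (14) they were 9 with edgeR, 9 without the filter and 8 with only the groups compared. For BCL11b among ID2- cells (5) they were 3 with edgeR, 3 with only the groups compared and 9 with scaling to nuclear reads. For ID2 among BCL11b- cells (5) edgeR gave 3. For ID2 among BCL11b+ cells (2) the count was 0 with library weights or only the groups compared, and 1 without the filter or with scaling to nuclear reads. For BCL11b among ID2+ cells (0) DESeq2 gave 1. The interaction (4) had 2 with DESeq2 and 1 with edgeR. BCL11blowID2low against BCL11b-ID2- (6) had 3 with edgeR, library weights or only the groups compared, and against BCL11b+ID2+ (1) it had 2 with DESeq2 or a pseudocount of 8, and 3 with scaling to nuclear reads. At E15.5 (0 in each) DESeq2 gave 5 for DN2, 3 and 2 for BCL11b among ID2+ and ID2- cells and 1 for ID2 among BCL11b+ cells.

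Leaving out each library gave 4 to 15 calls for DN2, 2 to 8 for BCL11b among ID2- cells, 0 to 1 among ID2+ cells, 2 to 7 for ID2 among BCL11b- cells, 0 to 2 among BCL11b+ cells, 2 to 6 for the interaction, and 3 to 6 and 1 to 2 for BCL11blowID2low against BCL11b-ID2- and BCL11b+ID2+. At E15.5 it gave 0 to 6 for BCL11b among ID2- cells, 0 to 2 for DN2 and 0 to 0 for the other 4. Calls over all genes moved too, for DN2 at E19.5 from 2240 to between 1572 and 2082. Where DN2 at E15.5 was left with 1 library, that library was assumed to vary like the other groups.

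Library numbers were not used to pair samples in the main fit. At E15.5, same-numbered libraries of different gates correlated at -0.0458 to 0.0388 (median 0.0145, against -0.00858 for other numbers). At E19.5 they correlated at 0.00202 to 0.129 (median 0.0538, against -0.0205). Of the libraries, 8 of 14 and 17 of 18 correlated best with their own number. Same-numbered libraries thus varied together at E19.5, which the main fit left out. With a replicate block the E19.5 member counts became 21 for DN2, 13 for BCL11b among ID2- cells and 1 among ID2+ cells, 4 for ID2 among BCL11b+ cells, 7 among BCL11b- cells, 9 for the interaction, and 7 and 3 for BCL11blowID2low against BCL11b-ID2- and BCL11b+ID2+, and at E15.5 they stayed 0. The share of all genes called under the block is not given here, so the rise in these counts is not read as a result about the members. The call of Ndufaf3 for ID2 among BCL11b- cells was the 1 call lost under the block (adjusted p = 0.0513).

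Members at a few reads, such as Cox6a2, Cox6b2 and Cox4i2, are limited by depth, and members with near-identical copies by the placing of reads.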
